A study of Homo sapiens with 12 samples.

Results

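Transcript levels of 8 genes tied to androgen receptor signaling and prostate identity (KLK2, KLK3, TMPRSS2, FKBP5, HOXB13, FOXA1, STEAP1 and STEAP2) were followed through an RNA sequencing study of cells labelled as 2 prostate cancer cell lines. The genes were chosen by name, as known targets or partners of the androgen receptor and prostate-enriched genes, and make up 8 of the 18950 genes in the table. Cells labelled DU145 or PC3, which are established human prostate cancer lines, were grown in DMEM with 10% fetal bovine serum and sorted by the intensity of green fluorescent protein (GFP). The labels call the brightest 10% (GFP+) Wnt/β-catenin active and the dimmest 10% (GFP-) inactive, and total RNA was sequenced. There were 3 libraries in each of 4 groups, DU145 GFP+, DU145 GFP-, PC3 GFP+ and PC3 GFP-. All 4 groups shared the medium, and the labels name no drug, added androgen or unsorted control. The labels do not describe the reporter construct or say whether a line was a single clone.

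The androgen receptor is a steroid-activated transcription factor that waits in the cytoplasm in a complex with the chaperone HSP90 and its co-chaperones, and enters the nucleus when androgen binds. On chromatin it works with FOXA1, a pioneer factor that opens binding sites, and with HOXB13, a homeobox factor of the prostate. In prostate luminal cells its best known targets are the secreted kallikreins KLK2 and KLK3 (KLK3 encodes prostate-specific antigen), the membrane protease gene TMPRSS2 and the co-chaperone gene FKBP5. DU145 and PC3 are both known as lines that grow without androgen.

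The libraries held between 13453614 and 21528810 estimated counts. Levels are in CPM, each library's counts divided by its scaled total. The limit set by a count of 0 lay between 0.130 and 0.233 CPM across libraries, counting error only. Genes used to check the labels went against them. EPCAM, an epithelial surface gene that both lines are known to express, stayed between 0 and 0.212 CPM in all 12 libraries, and CDH1 (E-cadherin) between 0 and 0.663 CPM. PC3 is known for loss of the α-catenin gene CTNNA1, yet CTNNA1 lay at 412 to 489 CPM in libraries labelled DU145 and at 377 to 416 CPM in those labelled PC3. The kidney and urogenital lineage factor gene PAX8, looked up after the data had been seen, lay at 175 to 334 CPM over the 12 libraries. The line names used here are therefore those of the labels, and stand for libraries labelled DU145 and libraries labelled PC3. Of 5 epithelial markers, KRT8 and KRT18 carried nearly the whole signal, and KRT8 lay at 1641 to 1976 CPM in DU145 GFP+ and 2568 to 2896 CPM in DU145 GFP-, and at 16.2 to 20.4 CPM in PC3 GFP+ and 23.5 to 28.3 CPM in PC3 GFP-. Endothelial markers summed to at most 1.29 CPM in any library. Fibroblast markers summed to 2.85 to 3.64 CPM in PC3 GFP+ and 0.757 to 1.84 CPM in PC3 GFP-, the collagen gene COL3A1 making up most of it in PC3 GFP+, and to at most 1.27 CPM in DU145. The 4 leukocyte markers found summed to 25.5 to 32.2 CPM in DU145 GFP+ and 39.0 to 44.6 CPM in DU145 GFP-. In PC3 they summed to at most 7.29 CPM. CD68 made up most of the sum, averaging 26.7 CPM in DU145 GFP+ and 40.1 CPM in DU145 GFP-. PTPRC, another of the 4, had 1 count in DU145 GFP+ and 0 in DU145 GFP-. The part of any of these markers in the results was not tested. PC3 GFP- replicates 2 and 3 stood apart in having 3495 and 3491 genes at 0, against 4577 to 4819 in the other 4 PC3 libraries.

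The kallikreins KLK3 and KLK2, serine proteases of seminal fluid that lie next to each other on chromosome 19, were close to absent from the counts. KLK3 had 0, 0 and 0 counts in DU145 GFP+, 0, 0 and 1 in DU145 GFP-, 0, 0 and 0 in PC3 GFP+ and 0, 0 and 1 in PC3 GFP-. KLK2 had 1 count over all 12 libraries, in PC3 GFP+ replicate 3. No group stood out, and no fold is given, since both genes were at or under the level that a count of 0 allows. None of the 10 kallikrein genes found in the table, of 15 listed, reached 1 CPM in 3 libraries, and the highest group mean among them was 0.195 CPM (KLK14, DU145 GFP-). The promoter windows of KLK3 and KLK2 are shown because these classical androgen-regulated promoters are near copies of each other: 251 of 287 aligned bases (87.5%) were identical. The windows run from 250 bases before to 50 bases after the start of the gene (RefSeq, GRCh38.p14), at chr19:50854665-50854964 for KLK3 and chr19:50873189-50873488 for KLK2, both on the plus strand. Capitals mark the hexamer AGAACA, which forms one side of a steroid receptor site. Searched on both strands, it was in 14.8% of the 35116 RefSeq promoter windows, and KLK3 has it at base 81 of its window. At the matching place KLK2 has GGAACA, which differs in the first base and is not marked, since only exact matches were sought.
KLK3: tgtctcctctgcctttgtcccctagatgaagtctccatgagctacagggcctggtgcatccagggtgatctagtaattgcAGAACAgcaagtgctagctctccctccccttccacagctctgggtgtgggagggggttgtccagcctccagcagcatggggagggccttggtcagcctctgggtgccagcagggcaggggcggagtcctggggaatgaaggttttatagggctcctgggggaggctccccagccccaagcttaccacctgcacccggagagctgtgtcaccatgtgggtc
KLK2: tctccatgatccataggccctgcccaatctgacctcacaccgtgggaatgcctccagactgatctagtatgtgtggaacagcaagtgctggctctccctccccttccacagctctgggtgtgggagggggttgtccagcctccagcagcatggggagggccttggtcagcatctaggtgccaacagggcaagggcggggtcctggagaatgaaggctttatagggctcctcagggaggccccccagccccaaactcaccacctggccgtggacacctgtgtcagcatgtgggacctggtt

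TMPRSS2, a transmembrane serine protease gene on chromosome 21 whose androgen-driven promoter is fused to ETS genes in many prostate tumors, was as low. It had 1 count in DU145 GFP+ replicate 1, 1 count in DU145 GFP- replicate 2 and 0 in the other 10 libraries. Nothing could be compared at this depth. Among 12 membrane serine proteases and their inhibitors, the inhibitor genes SPINT1 and SPINT2 were the 2 above 1 CPM in at least 3 libraries. SPINT2, which encodes a Kunitz-type inhibitor of such proteases, averaged 317 ± 36.5 CPM in DU145 GFP+ and 339 ± 21.9 CPM in DU145 GFP- (SD, n = 3 each), and 12.9 ± 0.563 CPM in PC3 GFP+ and 18.5 ± 1.65 CPM in PC3 GFP- (SD, n = 3 each). It fell in PC3 (log2 fold change -0.52 ± 0.10 SE, limma adjusted p = 0.00433), with an adjusted p of 0.142 without PC3 GFP- replicates 2 and 3. In DU145 the log2 fold change of -0.10 had an adjusted p of 0.435.

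**Figure D1:**
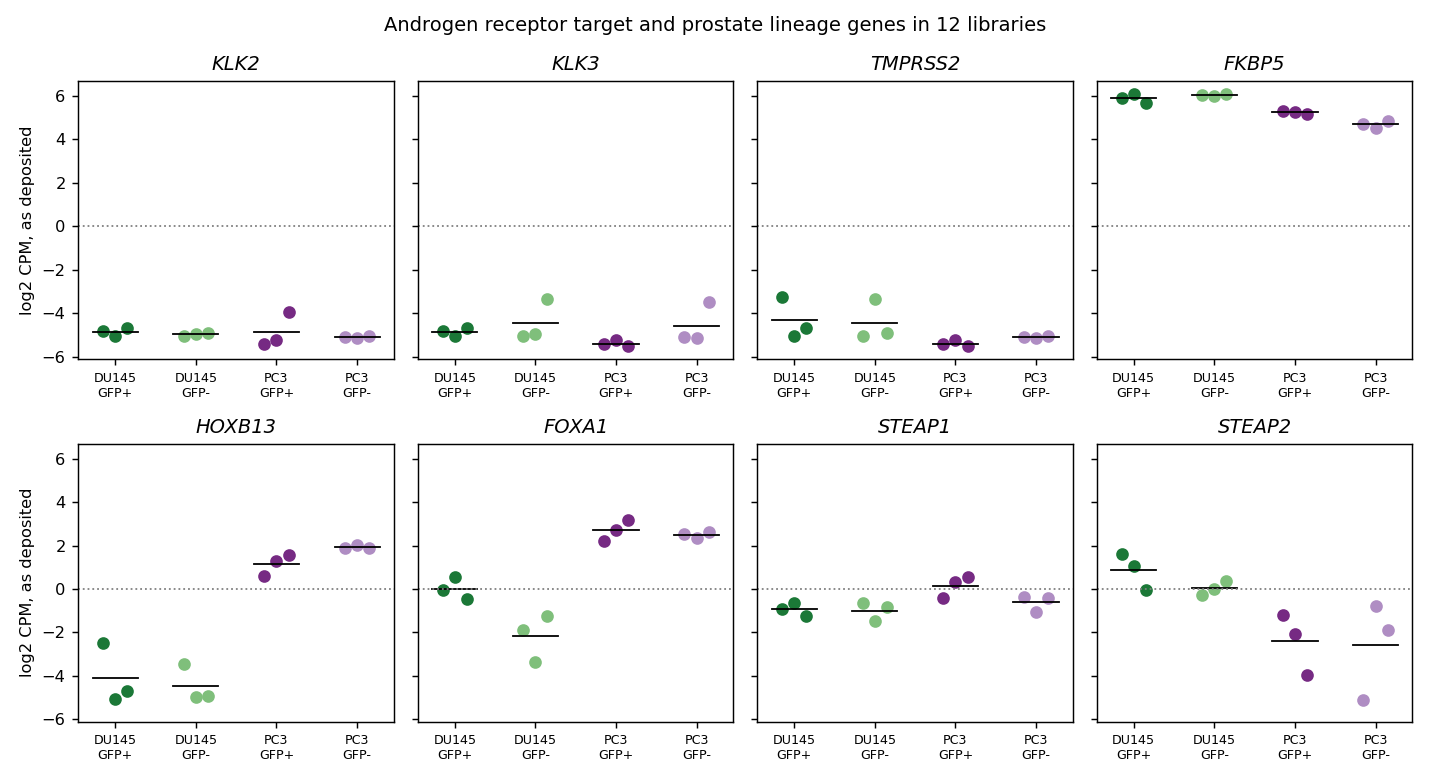
Level of each of the 8 genes in the 12 libraries, as log2 CPM on the deposited scale (vertical axis), by group (horizontal axis). Points are libraries, bars are means of 3, and the dotted line is 1 CPM. FKBP5 lies far above the line in all 12 libraries, KLK2, KLK3 and TMPRSS2 lie at the floor, and FOXA1 and HOXB13 are higher in the libraries labelled PC3.

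Differences were tested with limma on the deposited log2 values for the 12527 genes that reached 1 CPM in at least 3 of the 12 libraries, with Benjamini-Hochberg adjustment at 0.05. A log2 fold change is GFP+ over GFP- and is given with its standard error. Of the 8 genes, 4 passed that minimum (FKBP5, HOXB13, FOXA1 and STEAP2), and STEAP1 was taken from a fit to all 18950 genes. In DU145, 1 of the 4 passed the test, FOXA1, which rose, against 27.1% of all genes tested (13.1% higher and 13.9% lower). In PC3, 1 of the 4 passed, FKBP5, which rose, against 9.44% of all genes tested (4.17% higher and 5.27% lower). Separate cultures or sorts behind replicate libraries are not mentioned in the labels, and the p-values then measure a spread between libraries that may be technical. In sorted bulk RNA, fewer cells expressing a gene and less RNA per cell cannot be told apart. Where the libraries of 2 groups are said not to overlap, this describes them and is not a test. Genes that were not called show it too.

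FKBP5 encodes a co-chaperone that binds HSP90 in steroid receptor complexes, and its transcription is known to respond to androgen, progesterone and glucocorticoid. It lies on chromosome 6 (35573585 to 35728583, minus strand, GRCh38, GENCODE 29). It was the only one of the 8 genes above 10 CPM in any library. In libraries labelled PC3 it was higher in GFP+ cells by close to 1.5-fold, and in libraries labelled DU145 it was not called. FKBP5 lay at 39.8, 38.9 and 35.5 CPM in PC3 GFP+, against 26.2, 23.2 and 28.3 CPM in PC3 GFP-. All 3 GFP+ libraries were above all 3 GFP- libraries. The log2 fold change was 0.56 ± 0.11 (1.47-fold, 95% interval 0.32 to 0.79, limma adjusted p = 0.00585). Without PC3 GFP- replicates 2 and 3 it was 0.54, with an adjusted p of 0.0824.

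In DU145, FKBP5 lay at 60.4, 68.8 and 51.7 CPM in GFP+ cells, against 65.0, 64.8 and 67.7 CPM in GFP- cells. The groups overlapped, with GFP+ both above and below the narrow GFP- range. The log2 fold change was -0.14 ± 0.11 (95% interval -0.37 to 0.10, limma adjusted p = 0.356). DU145 carried a trend with base composition. Over 5 bins of 2502 genes by GC content, the median log2 fold change was 0.50 in the bin lowest in GC and -0.26 in the bin highest in GC. FKBP5, with 41.5% GC in its longest transcript, belonged to bin 2 from the low end, whose median was 0.20. Corrected for GC content and length, the log2 fold change of FKBP5 in DU145 was -0.57 (limma adjusted p = 0.00147), so the call in DU145 turns on this step, while PC3 kept 0.52 (adjusted p = 0.00207). The difference between the lines in the GFP effect, DU145 minus PC3, was -0.69 ± 0.16 (limma adjusted p = 0.0103), and FKBP5 was 1 of the 4 to pass, where 15.9% of all genes did so (7.06% higher and 8.82% lower).

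Both RefSeq promoter windows of FKBP5 are shown because it is the member with the clearest signal. The distal window (chr6:35728534-35728833, minus strand, GRCh38.p14) holds AGAACA at base 251, and the proximal window (chr6:35688866-35689165, minus strand) holds none. The full palindromic site, this hexamer and its reverse complement 3 bases apart, was in neither and was found in 1 of the 35116 windows. The hexamer CTTTGA is 1 form of the TCF/LEF motif, that of the Wnt pathway's own DNA-binding factors. It was in none of the 8 windows found for 6 of the 8 genes, and 12.9% of all windows hold it. These are exact letter matches within 300 bases and say nothing about other forms of the motifs or about sites elsewhere.
FKBP5 distal: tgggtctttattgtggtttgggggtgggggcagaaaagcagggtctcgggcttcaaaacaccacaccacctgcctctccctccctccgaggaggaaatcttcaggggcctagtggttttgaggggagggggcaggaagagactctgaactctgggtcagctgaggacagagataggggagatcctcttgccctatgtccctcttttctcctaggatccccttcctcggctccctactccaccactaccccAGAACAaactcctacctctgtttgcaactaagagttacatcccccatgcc
FKBP5 proximal: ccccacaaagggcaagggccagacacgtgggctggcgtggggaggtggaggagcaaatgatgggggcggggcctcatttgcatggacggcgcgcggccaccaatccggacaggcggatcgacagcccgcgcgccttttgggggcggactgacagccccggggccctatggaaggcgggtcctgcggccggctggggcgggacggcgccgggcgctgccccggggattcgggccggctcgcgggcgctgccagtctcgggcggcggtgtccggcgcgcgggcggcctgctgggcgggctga

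**Figure D2:**
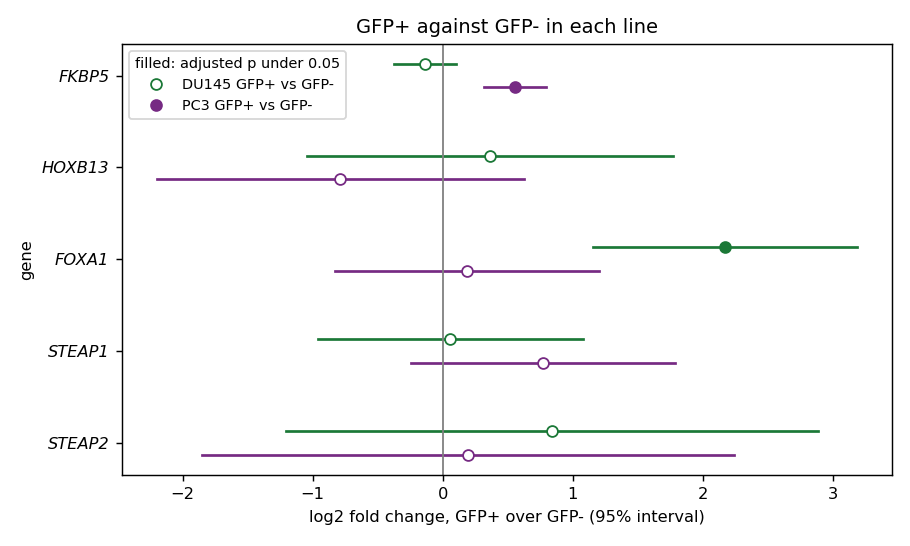
Log2 fold change of GFP+ over GFP- (horizontal axis) with its 95% interval for the 5 genes with enough counts (vertical axis), in DU145 (green) and PC3 (purple). Filled points passed the test: FOXA1 in DU145 at 2.17 and FKBP5 in PC3 at 0.56. STEAP1 is from the fit to all genes.

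No partner of FKBP5 in the steroid receptor chaperone complex was called higher with it in PC3. Of 12 genes of the HSP90 cycle, 1 rose and 3 fell in DU145, where 27.1% of all genes were called, and 1 rose and 1 fell in PC3, where 9.44% were called, FKBP5 being the one that rose in PC3. The median log2 fold change of the 12 was -0.19 in DU145 and -0.01 in PC3, beside -0.01 and -0.02 for all genes. FKBP4, the closest relative of FKBP5 in these complexes, averaged 248 ± 25.3 CPM in DU145 GFP+ and 334 ± 13.9 CPM in DU145 GFP- (SD, n = 3 each), a log2 fold change of -0.44 ± 0.09 (limma adjusted p = 0.00729). In PC3 it averaged 243 ± 11.5 CPM in GFP+ and 239 ± 26.6 CPM in GFP- (SD, n = 3 each) and was not called (0.03, adjusted p = 0.883). HSP90AA1, the inducible HSP90, was called higher in DU145 GFP+ (0.61 ± 0.18, adjusted p = 0.0259) although its groups overlapped, and the call was lost on leaving out any of 4 single libraries. The other falls in DU145 were the HSP90 co-chaperone genes CDC37 (-0.33, adjusted p = 0.0127) and AHSA1 (-0.27, adjusted p = 0.0471), lost under 8 and 14 of 24 alternatives, and in PC3 DNAJB1, an HSP40 gene, fell (-0.38, adjusted p = 0.0408, lost under 11). Over the whole FKBP family of peptidyl-prolyl isomerases, 14 of 15 genes were above the minimum, and FKBP5 in PC3 was the one called higher. In DU145, FKBP1A (-0.42), FKBP4 (-0.44), FKBP9 (-0.30) and FKBP8 (-0.41) fell, 4 of 14 where 27.1% of all genes were called. In PC3, FKBP1B (-0.69), FKBP3 (-0.46) and FKBP2 (-0.45) fell beside the 1 that rose, where 9.44% of all genes were called. The median of the 14 was -0.14 in DU145 and 0.03 in PC3, beside -0.01 and -0.02 for all genes. The call of FKBP8 was lost under 9 of 24 alternatives, that of FKBP2 under 9, that of FKBP3 under 5 and that of FKBP9 under 3.

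FKBP5 is also a standard glucocorticoid-responsive gene. Of 15 such genes, 12 were above the minimum. In PC3, FKBP5 and NFKBIA, the inhibitor of NF-κB, rose and none fell, 2 of 12 where 9.44% of all genes were called. In DU145, SGK1, a serum- and glucocorticoid-induced kinase gene, rose and none fell, 1 of 12 where 27.1% of all genes were called. NFKBIA averaged 133 ± 8.0 CPM in PC3 GFP+ and 98.7 ± 15.7 CPM in PC3 GFP- (SD, n = 3 each), with a log2 fold change of 0.43 ± 0.10 (limma adjusted p = 0.0165) that was lost under 5 of 24 alternatives. SGK1 averaged 13.6 ± 1.47 CPM in DU145 GFP+ and 8.51 ± 1.72 CPM in DU145 GFP- (SD, n = 3 each), 0.69 ± 0.16 on the log2 scale (limma adjusted p = 0.00974), and in PC3 197 ± 31.4 CPM in GFP+ and 150 ± 12.01 CPM in GFP- (0.38, adjusted p = 0.156). The SGK1 call in DU145 ended under the correction for GC content and length and without DU145 GFP+ replicates 1 and 2. The glucocorticoid-induced gene TSC22D3 (GILZ) was not called in either line, at 0.26 in DU145 and -0.25 in PC3. The median over the 12 was -0.14 in DU145 and 0.15 in PC3, beside -0.01 and -0.02 for all genes.

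NR3C1, the glucocorticoid receptor gene, averaged 26.2 ± 4.39 CPM in DU145 GFP+ and 15.4 ± 2.44 CPM in DU145 GFP- (SD, n = 3 each), a rise of 0.76 ± 0.16 on the log2 scale (limma adjusted p = 0.00762). In PC3 it averaged 37.6 ± 4.74 CPM in GFP+ and 37.3 ± 5.10 CPM in GFP- (0.01, adjusted p = 0.975). The DU145 call ended under the correction for GC content and length and without DU145 GFP+ replicates 1 and 2. The mineralocorticoid receptor NR3C2 had group means of at most 0.555 CPM, the estrogen receptor genes ESR1 and ESR2 at most 0.178 and 0.285 CPM, and the progesterone receptor gene PGR at most 0.0398 CPM.

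**Figure D3:**
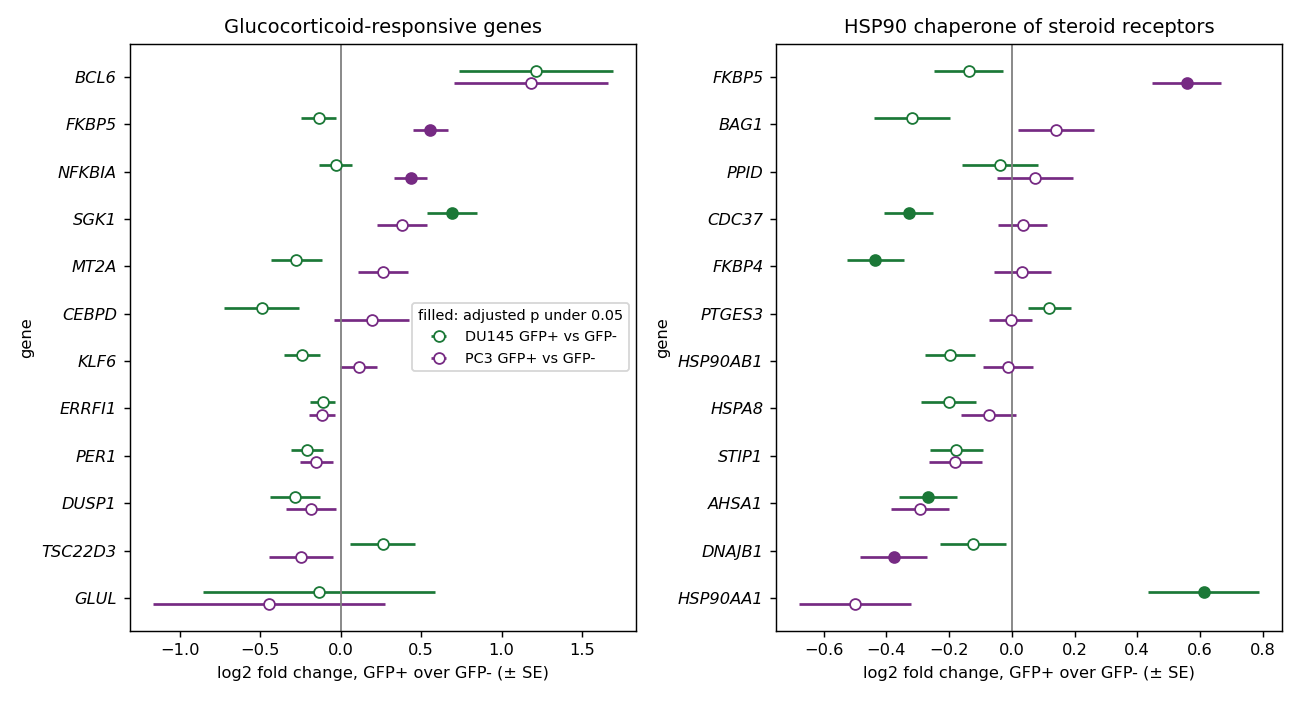
Log2 fold change of GFP+ over GFP- with its standard error (horizontal axis) for glucocorticoid-responsive genes and for genes of the HSP90 chaperone cycle above the minimum (vertical axes, sorted by PC3), in DU145 (green) and PC3 (purple). Filled points passed the test. FKBP5 stands at 0.56 in PC3 and at -0.14 in DU145.

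FOXA1, the forkhead pioneer factor gene on chromosome 14 (37589984 to 37596059, minus strand), was higher in GFP+ cells of the libraries labelled DU145, at levels close to 1 CPM. It had 13, 24 and 9 counts in DU145 GFP+, against 4, 1 and 6 in DU145 GFP-. All 3 GFP+ libraries were above all 3 GFP- libraries. That is 0.920, 1.45 and 0.698 CPM in GFP+ cells, against 0.242, 0.0646 and 0.395 CPM in GFP- cells. The log2 fold change was 2.17 ± 0.47 (4.51-fold, 95% interval 1.16 to 3.19, limma adjusted p = 0.00856). It rests on 46 counts in GFP+ and 11 in GFP-, was 1.09 with an offset of 8 counts, and had an adjusted p of 0.318 without GFP+ replicates 1 and 2.

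In the libraries labelled PC3, FOXA1 was more abundant and was not called. It lay at 4.61, 6.50 and 8.93 CPM in PC3 GFP+, against 5.82, 5.08 and 6.09 CPM in PC3 GFP-. The GFP+ libraries spread on both sides of the GFP- range. The log2 fold change was 0.19 ± 0.47 (95% interval -0.83 to 1.20, adjusted p = 0.871) and -0.05 without PC3 GFP+ replicate 3. The difference between the lines, DU145 minus PC3, was 1.99 ± 0.67 (limma adjusted p = 0.0586), so an unlike response of FOXA1 was not established, and under the GC and length correction the adjusted p was 0.0299. The FOXA1 window (chr14:37595200-37595499, minus strand, RefSeq, GRCh38.p14) is shown beside this rise. It holds none of AGAACA, the forkhead core TGTTTA (12.3% of all windows) and CTTTGA, on either strand. These too are exact letter matches and say nothing about other forms of the motifs. The window does hold CTTTGT, which differs from CTTTGA in the last base and was not searched for.
FOXA1: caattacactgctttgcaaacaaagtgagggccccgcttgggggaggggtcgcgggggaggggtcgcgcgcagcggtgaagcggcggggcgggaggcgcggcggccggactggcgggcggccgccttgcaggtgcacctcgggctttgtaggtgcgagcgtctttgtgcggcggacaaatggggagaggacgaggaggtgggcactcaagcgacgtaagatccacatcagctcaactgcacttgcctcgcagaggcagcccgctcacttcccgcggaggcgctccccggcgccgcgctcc

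**Figure D4:**
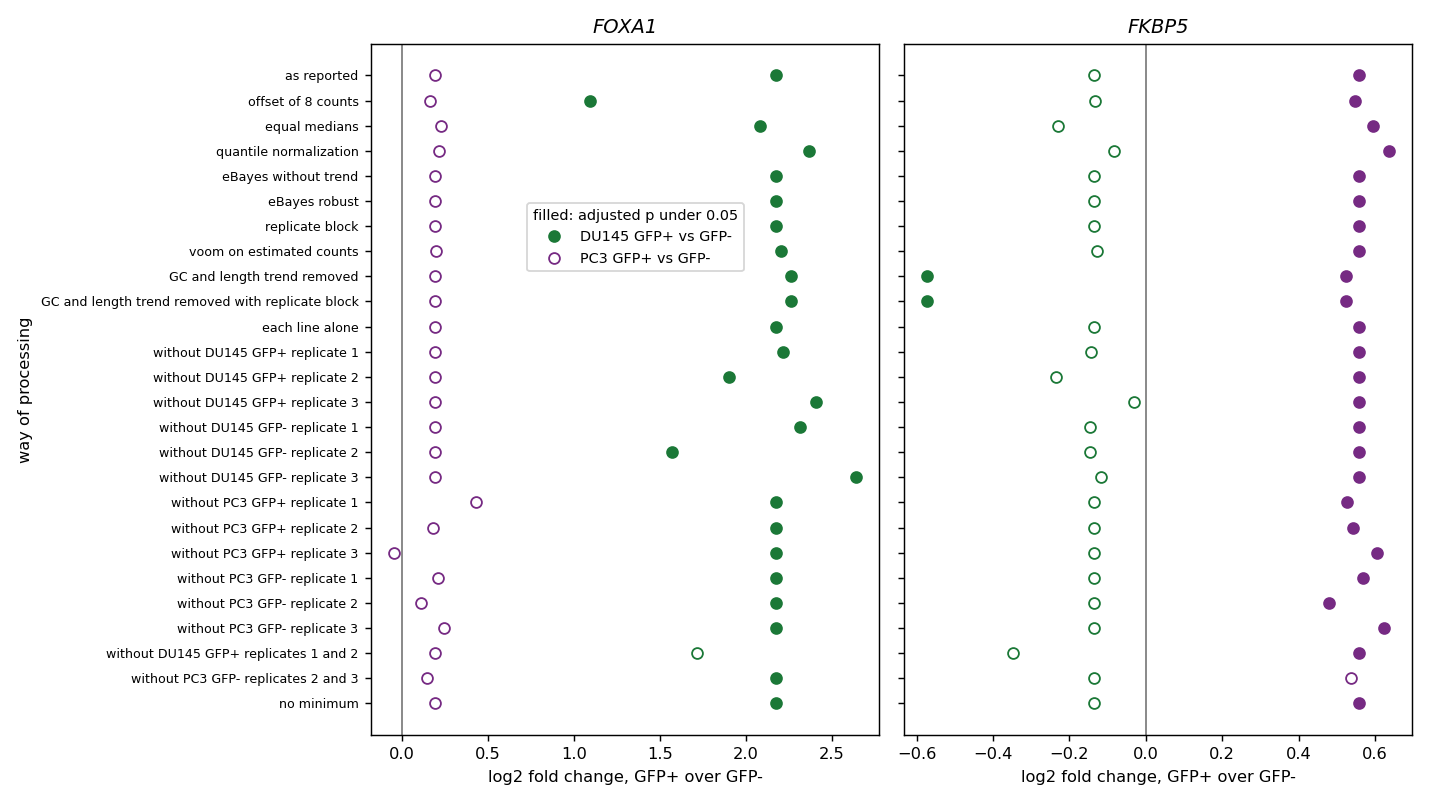
Log2 fold change of GFP+ over GFP- (horizontal axis) of FOXA1 and FKBP5 under each way of processing (vertical axis), in DU145 (green) and PC3 (purple). Filled points passed the test. FOXA1 in DU145 ranges from 1.09 to 2.64, and FKBP5 in DU145 is filled with the GC and length trend removed, at -0.57.

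HOXB13, a homeobox gene at the end of the HOXB cluster on chromosome 17 (48724763 to 48729178, minus strand) that marks prostate and hindgut, was detected in PC3 and close to absent in DU145. It had 2, 0 and 0 counts in DU145 GFP+ and 1, 0 and 0 in DU145 GFP-. In PC3 it lay at 1.47, 2.42 and 2.90 CPM in GFP+ cells, against 3.61, 4.02 and 3.70 CPM in GFP- cells. All 3 PC3 GFP+ libraries were under all 3 GFP- libraries, but the groups of HOXB2 and HOXB5 in PC3, which were not called, did not overlap either. The log2 fold change of -0.79 ± 0.65 did not pass (95% interval -2.20 to 0.62, limma adjusted p = 0.540). With 3 counts in all in DU145, against 340 in PC3, the level in libraries labelled PC3 was 89.3 times that in libraries labelled DU145 (exact 95% interval 30.3 to 435, counting error only).

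The rest of the HOXB cluster was expressed in both lines. Of its 10 genes, 9 were above the minimum, and the 8 from HOXB2 to HOXB9 were present in every group. The test called 1 of the 9 in DU145, where 27.1% of all genes were called, and 0 in PC3, where 9.44% were. In DU145, HOXB6 rose, at 32.2 ± 4.02 CPM in GFP+ and 23.8 ± 1.56 CPM in GFP- (SD, n = 3 each; log2 fold change 0.43 ± 0.11, limma adjusted p = 0.0171), a call lost under 4 of 24 alternatives, and in PC3 none was called. The nearest cluster genes, HOXB9 and HOXB8, went the other way from HOXB13 between the lines: HOXB9 was higher in libraries labelled DU145 by 1.10 ± 0.13 (log2 DU145 over PC3, adjusted p = 3.25e-06) and HOXB8 by 2.25 ± 0.21 (adjusted p = 4.4e-07).

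**Figure D5:**
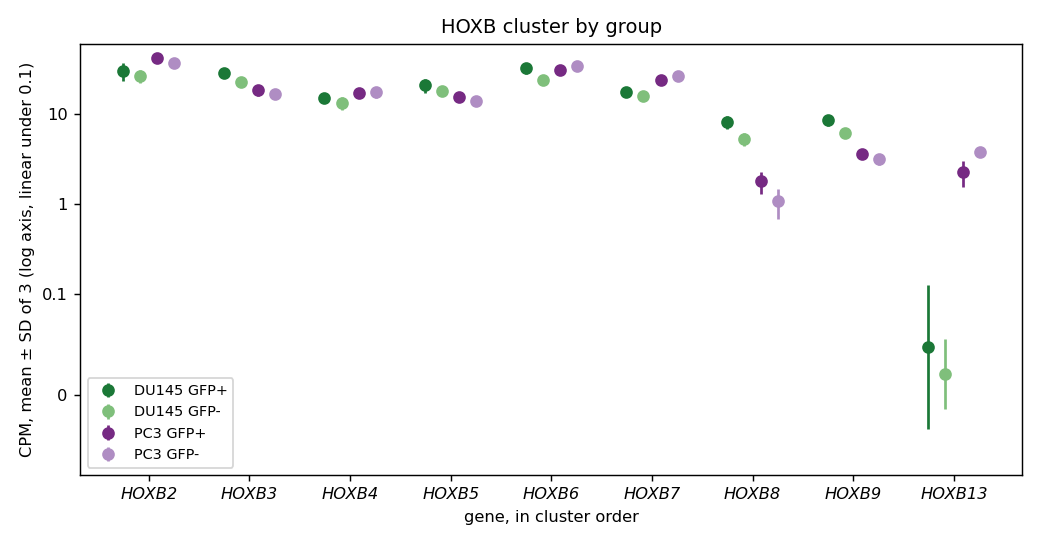
Level in CPM (vertical axis, logarithmic above 0.1 and linear under it, mean ± SD of 3 libraries) of the HOXB genes above the minimum in cluster order (horizontal axis), by group. HOXB2 to HOXB9 are present in all 4 groups, and HOXB13 is near 0 in the libraries labelled DU145 and at 2.27 and 3.78 CPM in PC3 GFP+ and GFP-.

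STEAP1 and STEAP2 are neighbouring genes on chromosome 7 that encode membrane proteins of the STEAP metalloreductase family, both enriched in prostate. STEAP2 had 42, 34 and 12 counts in DU145 GFP+, against 13, 15 and 19 in DU145 GFP-. That is 2.97, 2.05 and 0.931 CPM in GFP+ cells, against 0.788, 0.968 and 1.25 CPM in GFP- cells. The groups overlapped, since GFP+ replicate 3 lay within the range of the GFP- libraries. In PC3 it had 9, 4 and 1 counts in GFP+, against 0, 10 and 4 in GFP-. The log2 fold changes, 0.84 ± 0.95 in DU145 (95% interval -1.20 to 2.89, limma adjusted p = 0.514) and 0.20 ± 0.95 in PC3 (95% interval -1.85 to 2.24, adjusted p = 0.938), had intervals too wide to give a direction. An antisense gene, STEAP2-AS1, starts beside STEAP2, and it is not stated whether counting used strand.

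STEAP1 lay at 0.495, 0.603 and 0.388 CPM in DU145 GFP+, against 0.606, 0.323 and 0.527 CPM in DU145 GFP-. In PC3 it lay at 0.737, 1.24 and 1.43 CPM in GFP+, against 0.757, 0.446 and 0.717 CPM in GFP-. In PC3 GFP+, replicates 2 and 3 were above all GFP- libraries and replicate 1 was within their range. In the fit to all genes, where 5.69% were called in PC3 and 15.4% in DU145, neither line was called (0.77 ± 0.47, limma adjusted p = 0.393 in PC3, and 0.06 ± 0.47, adjusted p = 0.933 in DU145). Of the family, STEAP3, a ferrireductase of the erythroid transferrin cycle, was the abundant member. It averaged 95.7 ± 6.09 CPM in DU145 GFP+ and 116.1 ± 7.11 CPM in DU145 GFP- (SD, n = 3 each), and fell by 0.28 on the log2 scale (limma adjusted p = 0.0254), a call lost under 8 of 24 alternatives. In PC3 it averaged 101 ± 7.19 CPM in GFP+ and 96.6 ± 4.80 CPM in GFP- (SD, n = 3 each) and was not called. STEAP4 and STEAP1B stayed at most at 0.0517 and 0.202 CPM as group means.

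Between the lines, all 4 of the genes above the minimum passed the test, 2 higher and 2 lower in libraries labelled DU145, where 77.5% of all genes did so (38.3% higher and 39.2% lower), so the share is little guide to these genes. HOXB13 met the minimum through PC3 libraries alone, STEAP2 through DU145 libraries alone and FOXA1 mainly through PC3, so the filter itself favored a difference between the lines. FKBP5 spanned 51.7 to 68.8 CPM (median 64.9) over the 6 DU145 libraries, against 23.2 to 39.8 CPM (median 31.9) over the 6 PC3 libraries. No DU145 library was as low as any PC3 library. The log2 difference, DU145 over PC3, was 1.002 ± 0.08 (2.003-fold, limma adjusted p = 5.54e-08). STEAP2 spanned 0.788 to 2.97 CPM (median 1.11) in DU145, against 0 to 0.558 CPM (median 0.227) in PC3, a log2 difference of 2.94 ± 0.67 (7.66-fold, adjusted p = 0.00122). FOXA1 spanned 0.0646 to 1.45 CPM (median 0.547) in DU145, against 4.61 to 8.93 CPM (median 5.96) in PC3, a log2 difference of -3.67 ± 0.33 (12.7-fold lower in DU145, adjusted p = 2.71e-07). HOXB13 was lower in DU145 too (limma adjusted p = 7.28e-08), by the count ratio given for it. STEAP1 was not called between the lines (-0.74 ± 0.34 in the fit to all genes, adjusted p = 0.0756, where 57% of genes were called), but was under quantile normalization (-1.47, adjusted p = 0.00129), eBayes without trend (adjusted p = 0.0189) and without PC3 GFP- replicate 2 (-0.85, adjusted p = 0.0491).

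Per kilobase of exon, FKBP5 was the highest of the 8 in every group, at 5.67 CPM per kb in DU145 GFP+, 6.19 in DU145 GFP-, 3.58 in PC3 GFP+ and 2.44 in PC3 GFP-. In DU145 GFP+ the next were STEAP1 (0.305 CPM per kb), FOXA1 (0.257) and STEAP2 (0.228), whose libraries overlapped from each to the next. In PC3 GFP+ the next was FOXA1 (1.68 CPM per kb), above STEAP1 (0.698) and HOXB13 (0.653), which overlapped each other.

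Among other genes known to respond to androgen, calls went in both directions in each line. Of 30 androgen-responsive genes, 20 were above the minimum. In DU145 the test called 3 higher and 4 lower, 7 of 20 where 27.1% of all genes were called, with a median of -0.04. In PC3 it called 2 higher and 1 lower, 3 of 20 where 9.44% of all genes were called, with a median of 0.15, beside medians of -0.01 and -0.02 for all genes. NNMT, nicotinamide N-methyltransferase, moved in opposite directions. It averaged 0.156 ± 0.0851 CPM in DU145 GFP+ and 9.95 ± 1.03 CPM in DU145 GFP- (SD, n = 3 each; log2 fold change -5.81 ± 0.37, limma adjusted p = 1.02e-06), and 3.53 ± 0.482 CPM in PC3 GFP+ and 0.690 ± 0.243 CPM in PC3 GFP- (SD, n = 3 each; 2.35 ± 0.37, adjusted p = 0.00111). In DU145, ACSL3, a long-chain fatty acid activating enzyme, rose by 0.75 on the log2 scale (adjusted p = 0.00243), a call that ended under the correction for GC content and length. CAMKK2, a kinase upstream of AMPK, fell by 0.44 (adjusted p = 0.00381), and CENPN, a centromere protein gene, rose by 0.36 (adjusted p = 0.00913). In PC3, NDRG1, a stress-responsive gene, fell by 1.14 on the log2 scale (limma adjusted p = 0.00299), and FKBP5 and NNMT were the genes that rose. NDRG1 was called lower in DU145 too (-0.61, limma adjusted p = 0.0417), a call lost under 8 of 24 alternatives.

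Among 18 prostate lineage transcription factors, 10 were above the minimum, with 1 rising and 1 falling in DU145 (27.1% of all genes called) and 1 rising and 2 falling in PC3 (9.44% of all genes called). GATA2, a factor that acts with the androgen receptor at its target sites, averaged 1.38 ± 0.401 CPM in PC3 GFP+ and 0.405 ± 0.0498 CPM in PC3 GFP- (SD, n = 3 each; log2 fold change 1.65 ± 0.24, limma adjusted p = 0.000542). In DU145 it averaged 27.4 ± 4.96 CPM in GFP+ and 39.9 ± 3.96 CPM in GFP- (SD, n = 3 each) and did not pass (-0.55, adjusted p = 0.0934). The falls in PC3 were SOX9, at -0.37 (adjusted p = 0.0383), and HOXA13, at -2.04 (adjusted p = 0.041). They were lost under 9 and 14 of 24 alternatives, and HOXA13 rests on 11 counts in GFP+ and 36 in GFP-. In DU145, FOXA1 rose and ETV4, an ETS family factor, fell by 0.70 (limma adjusted p = 0.00152). The luminal factor genes SPDEF and GRHL2 had group means of at most 0.116 and 0.0199 CPM. Of the luminal keratin genes, KRT8 fell in DU145 (-0.66, limma adjusted p = 0.00152) and in PC3 (-0.53, adjusted p = 0.0055). KRT18 fell in DU145 (-0.52, limma adjusted p = 0.0121) and was not called in PC3 (-0.13, adjusted p = 0.593). Of 9 secretory luminal markers found, KRT8, KRT18 and PSCA, which was not called, were the 3 above the minimum. Their part in the lineage results was not tested. KRT8 and KRT18 have many near-identical pseudogenes and their estimated counts were fractional.

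All 14 androgen receptor cofactors were above the minimum. In DU145, 2 rose and 1 fell (27.1% of all genes called), and in PC3, 1 fell (9.44% of all genes called). In DU145, the coactivator genes CREBBP (0.37, limma adjusted p = 0.00375) and NCOA1 (0.63, adjusted p = 0.0316) rose, and the NCOA1 call was lost under 9 of 24 alternatives. The medians of the 14 were 0.15 in DU145 and 0.05 in PC3, beside -0.01 and -0.02 for all genes. Of 18 genes of androgen synthesis and metabolism, 4 were above the minimum. The 5α-reductase gene SRD5A1 fell in DU145 (-0.62 ± 0.13, limma adjusted p = 0.00773), at 19.8 ± 4.10 CPM in GFP+ and 30.2 ± 0.879 CPM in GFP- (SD, n = 3 each). STS, which releases steroids from their sulfates, rose there (0.74, adjusted p = 0.0438) but was lost under 16 of 24 alternatives, and none was called in PC3.

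The calls of the genes named from these lists were also tested with 2 libraries of a group left out, where the remaining library is assumed to vary like those of the other groups. Without DU145 GFP+ replicates 1 and 2, the DU145 calls of NNMT and SRD5A1 held and the others ended, those of KRT8 and KRT18 included. Without PC3 GFP- replicates 2 and 3, the PC3 calls of NNMT, GATA2 and NFKBIA held and the others ended, with an adjusted p of 0.0980 for NDRG1, 0.128 for FKBP1B and 0.0535 for KRT8.

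Likeness was measured as the root mean square difference between log2 values centred on each gene's mean over the 12 libraries. The genes closest to FKBP5 were TRAF3 (0.120), IGF2BP1 (0.133) and ETS1 (0.134). TRAF3, an adaptor of tumor necrosis factor receptors, averaged 156 ± 10.3 CPM in DU145 GFP+, 171 ± 9.77 CPM in DU145 GFP-, 103 ± 1.96 CPM in PC3 GFP+ and 77.6 ± 2.67 CPM in PC3 GFP- (SD, n = 3 each). Those closest to FOXA1 were TBC1D8B (0.434), DNAJB4 (0.628) and UGT8 (0.648), and those closest to HOXB13 were CSMD3 (0.622), ADAMTS3 (0.639) and ZEB2 (0.763). For STEAP2 they were ZDHHC11 (0.846), STOX1 (0.923) and TPPP (0.931). The distances for FOXA1, HOXB13 and STEAP2 are several times those for FKBP5, at counts that are far lower.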

How the data were processed

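RNA was sequenced in 12 libraries, 3 per group, grouped by their labels. STAR and DESeq2 are named in the submitters' processing notes. Versions, the genome build and the way reads were counted were not given in the sources used here. Per the labels, the deposited values are log2 normalized counts. Their steps fit log2 CPM of a count plus 0.5 over a scaled library total. Counts were estimated by reversing this, and in the median library 86.9% came out whole (tolerance 0.01). CPM in the text leaves the offset out. The fixed minimum was a log2 value of 0 (1 CPM) in at least 3 of the 12 libraries.

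The 4 contrasts were fitted in R 4.3.3 by limma 3.58.1, with eBayes and a mean-variance trend, on 4 group means (8 residual degrees of freedom). Tests were two-sided, with Benjamini-Hochberg adjustment per contrast at 0.05. The procedure was tested on simulated data. The 12 pathway and 7 marker lists and the 8 genes were chosen with earlier results of these data known. All 8 genes are named, with up to 4 genes per list and comparison with the smallest p, all genes of lists of 6 or fewer and, for each gene above the minimum, the 3 with the most similar profile. Some of the genes this rule selects are left unreported. GC content and length (of the longest transcript), exon length and positions came from GENCODE 29 (18900 genes matched by identifier), and promoters from RefSeq. Alternatives were other minimums, offsets, scalings and variance models, voom, each line alone, a replicate block, removal of the GC and length trend, an adjusted p under 0.01 and leaving out libraries.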

Additional observations from a re-analysis of the deposited data

Results flagged for a closer look

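For FKBP5 the effect of the GFP sort differed between the lines by a test of the difference itself (DU145 minus PC3, log2): -0.69, limma adjusted p = 0.0103. In PC3, 3 of 3 GFP+ libraries lay above every GFP- library, and in DU145 the groups overlapped. The same test singled out 17 other genes named here or taken from the same lists. The difference was negative for NNMT (-8.16), RIPK4 (-2.93), GATA2 (-2.21), ETV4 (-0.98), SRD5A1 (-0.77), FKBP1A (-0.56), CAMKK2 (-0.52), FKBP4 (-0.47), NFKBIA (-0.47), CDC37 (-0.36) and FKBP9 (-0.36). It was positive for HOXA13 (2.69), HSP90AA1 (1.11), ACSL3 (0.90), NR3C1 (0.75), FKBP3 (0.70) and HOXB6 (0.58). Across all genes tested, 15.9% passed this test, so differences of this kind were common in these libraries. What they stem from was not tested.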

How the results depend on the processing

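Genes called numbered 3389 for DU145 GFP+ against GFP-, 1182 for PC3, 1990 for the difference between the lines and 9710 for DU145 against PC3. Leaving out 1 library moved these to between 896 and 5597, between 660 and 1492, between 1145 and 3661 and between 9323 and 9803. DU145 fell to 896 and 1066 without GFP+ replicate 1 or 2 and to 1323 and 966 without GFP- replicate 1 or 3, and reached 5597 without GFP+ replicate 3. PC3 fell to 660 and 709 without GFP+ replicate 1 or 2. Without DU145 GFP+ replicates 1 and 2 there were 170 calls in DU145 and 649 for the difference, and without PC3 GFP- replicates 2 and 3 there were 410 in PC3 and 1188 for the difference. Quantile normalization gave 2252 in DU145. With the GC and length trend removed there were 2405 in PC3 and 3101 for the difference. An adjusted p under 0.01 gave 784, 526 and 708 for the first 3 comparisons. The share of calls that were higher moved in DU145 to 36.3% with equal medians and 30.1% with the trend removed, against 48.6% as reported, and in PC3 to 55.3% and 57.7%, against 44.2%. Equal medians shifted the median of all genes to 0.13 for DU145 against PC3, against -0.01 as reported. The cause was not tested.

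Replicate numbers are shared between sorts. Same-numbered libraries correlated in their deviations from group means at -0.02, 0.0915 and 0.213 in DU145 and at 0.0594, 0.196 and 0.145 in PC3. The numbers were not taken to pair them. Even so, each PC3 library correlated best with its own number, as did DU145 GFP+ replicates 2 and 3. DU145 GFP+ replicate 1 correlated best with GFP- replicate 2 (0.183). The replicate block gave 4842, 1551, 3321 and 9931 calls, and with the GC and length trend also removed 2652 in PC3 and 3580 for the difference.

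Directions that reversed were all of genes not called. FOXA1 in PC3 became -0.046 without GFP+ replicate 3 (up to 0.43 on leaving out 1 library). HOXB13 in DU145 became -0.42 without GFP+ replicate 1 (up to 0.86 on leaving out another library) and -0.24 without GFP+ replicates 1 and 2. STEAP1 in DU145 became -0.17 with equal medians, -0.18 with quantile normalization, -0.11 with the trend removed, with or without the block, -0.08 and -0.19 without replicate 2 of GFP+ or GFP- (up to 0.23 without another library), and -0.23 without GFP+ replicates 1 and 2, which took STEAP2 to -0.068. STEAP2 in PC3 became -0.26 with an offset of 8 counts, -0.41 without GFP+ replicate 1 and -1.06 without GFP- replicate 1 (up to 1.10). Its difference between the lines became -0.13 without PC3 GFP+ replicate 3, -0.26 without PC3 GFP- replicate 2 (up to 1.90), -0.26 without DU145 GFP+ replicates 1 and 2 and -1.86 without PC3 GFP- replicates 2 and 3.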

Other observations

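The nearest gene above the minimum on 1 side of TMPRSS2, RIPK4, was chosen after its values were seen. RIPK4 encodes a receptor-interacting kinase of epithelia. It averaged 11.7 CPM in DU145 GFP+ and 23.8 CPM in DU145 GFP-, and 8.19 CPM in PC3 GFP+ and 2.18 CPM in PC3 GFP- (n = 3 each). The log2 fold changes were -1.01 in DU145 (limma adjusted p = 0.00426) and 1.92 in PC3 (limma adjusted p = 2.79e-05), opposite in direction. Beside the STEAP pair, GTPBP10, also chosen after its values were seen, averaged 6.37 CPM in DU145 GFP+ and 3.12 CPM in DU145 GFP- (log2 fold change 1.02, limma adjusted p = 0.00875), and 11.2 CPM in PC3 GFP+ and 10.99 CPM in PC3 GFP- (0.06, adjusted p = 0.923). For RIPK4 and GTPBP10, how the calls held under the alternatives, the GC and length correction included, is not reported.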
